A study of Mus musculus with 16 samples.

Results

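The comparison described here sets untreated small intestinal organoids that lack Atg16l1 in the epithelium against untreated organoids that keep it, 8 cultures of the 16 in the series. Cultures were chosen by their genotype and treatment labels, without use of any expression value, and all genes with enough counts are considered. The 4 ΔIEC cultures (KO in the sample names) came from V-cre+; Atg16l1 fl/fl mice, in which the villin promoter drives Cre in epithelial cells. The 4 fl/fl cultures (WT in the sample names) carried the same floxed alleles without Cre. Crypts were embedded in Matrigel and grown in a medium with EGF, Noggin and R-spondin, and the other 8 cultures of the series, which received IL-22 at 10 ng/ml, enter the fit of the spread and give values of the same genes in the same lines. Mice were on a C57BL/6 background, and their age is not in the labels. 

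Each genotype was represented by 2 organoid lines and each line by 2 untreated cultures. ΔIEC cultures 1 and 2 came from line 1290 and cultures 3 and 4 from line 1292, and fl/fl cultures 1 and 2 came from line 1293 and cultures 3 and 4 from line 1294. Values of single cultures are given in this order throughout. No line existed in both genotypes, so line and genotype cannot be told apart, and p-values over 4 against 4 cultures measure the spread between cultures of these lines. Both ΔIEC lines were therefore also required to lie on the same side of both fl/fl lines.

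ATG16L1 is the part of the ATG12-ATG5-ATG16L1 complex that directs LC3 and its relatives to be attached to lipid on the growing autophagosome, the membrane that delivers cytoplasmic cargo to the lysosome. In the small intestine it is best known for Paneth cells, the crypt base cells that store antimicrobial α-defensins and lysozyme in granules, which are abnormal in mice with reduced Atg16l1. Organoids also contain stem, goblet, enteroendocrine and tuft cells and enterocytes. In bulk RNA, fewer cells of a type and less RNA per cell cannot be told apart.

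Reads counted on genes ranged from 2135000 to 4024054 per untreated culture. Of 49585 genes, 12559 had enough counts to be tested, and the common biological coefficient of variation was 0.115. All 10 epithelial markers were tested, among them Epcam and Vil1, whereas 4 of 20 immune and 0 of 18 stromal markers had enough counts, and 9 immune and 7 stromal markers had no read in any of the 8 cultures. Ptprc, the defining marker of leukocytes, had 2 reads in the 8 cultures together. The summed level of the 4 tested immune markers was 24.1 to 29.04 CPM (counts scaled to a common library size) in ΔIEC and 29.1 to 42.6 CPM in fl/fl cultures. Most of these reads were of Kit and Csf1r, with 484 and 246 in the 8 cultures together. Mitochondrially encoded genes took 1.13% to 1.37% of counts in ΔIEC cultures, 1.22% to 1.36% in line 1293 and 1.76% to 2.09% in line 1294.

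The targeted gene was low in each ΔIEC culture. Atg16l1 (ENSMUSG00000026289.15; GRCm38 chromosome 1, 87755870 to 87792428, plus strand) had 11, 11, 3 and 10 counts in the ΔIEC and 133, 124, 91 and 184 in the fl/fl cultures. The levels were 2.59, 2.71, 1.21 and 4.15 against 38.9, 31.6, 41.3 and 49.2 CPM, and the groups did not overlap (log2 fold change -3.90, SE 0.37, adjusted p = 1.27e-06, edgeR quasi-likelihood test with Benjamini-Hochberg adjustment over all tested genes, as for each adjusted p that follows). Summed counts in fl/fl were 15.1 times those in ΔIEC, with an exact 95% interval of 10.7 to 21.9 that covers counting error only.

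In the comparison of genotypes, 475 genes (3.78% of those tested) were higher and 751 (5.98%) were lower in ΔIEC than in fl/fl cultures at an adjusted p under 0.01, in all 1226 genes or 9.76%. All 1226 were ordered across the lines, an order that a call at this threshold nearly entails. Culture values did not overlap for 467 of the 475 higher and 726 of the 751 lower genes, where 10.6% of all tested genes were higher and 12.6% lower without overlap. The median log2 fold change was 0.54 among higher and -0.69 among lower genes, and 56 higher and 209 lower genes differed by more than 2-fold, while the median of all tested genes was -0.02. The share of genes past the threshold was 5.22% at mean levels of 1 to 10 CPM, 9.5% at 10 to 100 CPM, 16.3% at 100 to 1000 CPM and 22.2% above 1000 CPM. Single cultures moved these counts, to 223 and 410 genes without ΔIEC culture 1, 273 and 499 without ΔIEC culture 2, 294 and 551 without ΔIEC culture 3, 260 and 519 without fl/fl culture 1 and 216 and 461 without fl/fl culture 2.

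**Figure D1:**
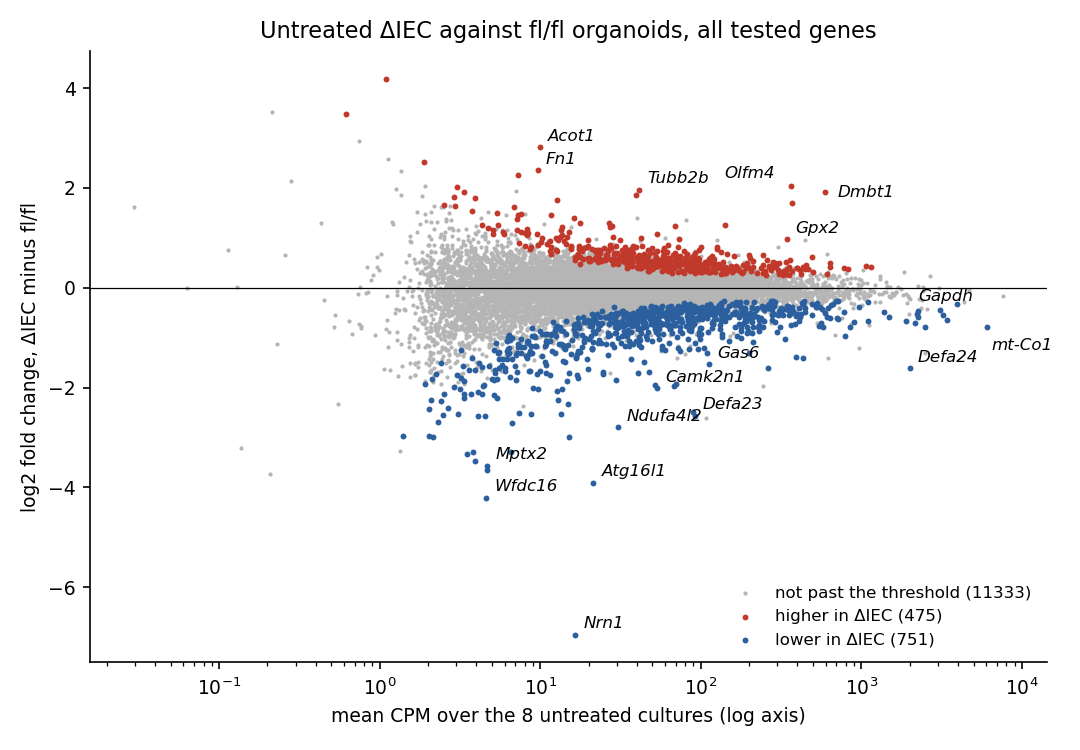
Log2 fold change of each of the 12559 tested genes (ΔIEC minus fl/fl, vertical axis) against its mean level over the 8 untreated cultures in CPM (horizontal log axis). Red points are the 475 higher and blue points the 751 lower genes at an adjusted p under 0.01, grey points are the rest, and Nrn1 lies lowest at -6.95.

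The size of the difference depended on the lines compared. With 2 cultures against 2, in a fit with a mean for each line and treatment, line 1290 differed from line 1293 in 2634 genes (21.0%), 1086 higher (8.65%) and 1548 lower (12.3%), and from line 1294 in 1096 genes (8.73%), 324 higher (2.58%) and 772 lower (6.15%). Line 1292 differed from line 1293 in 1632 genes (13.0%), 662 higher (5.27%) and 970 lower (7.72%), and from line 1294 in 841 genes (6.70%), 272 higher (2.17%) and 569 lower (4.53%). Within a genotype, ΔIEC line 1292 differed from line 1290 in 74 genes (0.589%), 47 higher (0.374%) and 27 lower (0.215%), and fl/fl line 1294 from line 1293 in 905 genes (7.21%), 452 higher (3.60%) and 453 lower (3.61%). The first principal component, 42.3% of the variance, ran from -29.6 to -18.4 in ΔIEC and from 13.2 to 29.8 in fl/fl cultures. The second, 21.6%, separated line 1293 (-19.98 and -15.9) from line 1294 (25.5 and 25.6).

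**Figure D2:**
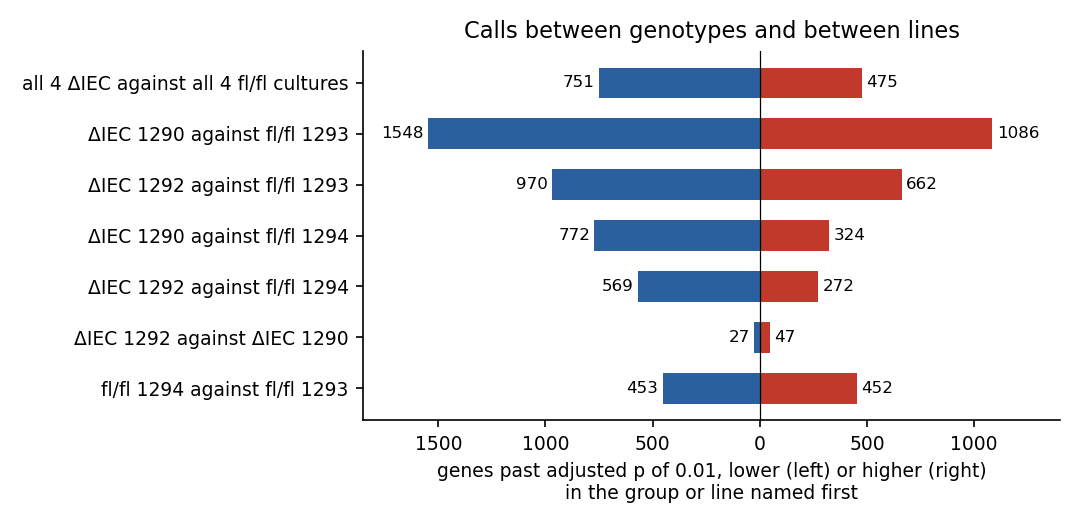
Number of genes past an adjusted p of 0.01 (horizontal axis) that were lower (blue, left) or higher (red, right) in the group or line named first, for the genotype comparison, the 4 pairs of a ΔIEC and a fl/fl line, and the 2 pairs of lines within a genotype. The fl/fl lines differed in 453 and 452 genes, the ΔIEC lines in 27 and 47.

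Some genes differed between lines more than between genotypes. Cybrd1, a duodenal iron reductase, was at 308, 451, 759 and 651 CPM in ΔIEC and at 867, 731, 224 and 230.3 CPM in fl/fl cultures (log2 fold change 0.07, SE 0.48, adjusted p = 0.94). Line 1293 lay near or above the highest ΔIEC culture and line 1294 below the lowest. With the condition that a gene pass the threshold in each of the 4 pairs of a ΔIEC and a fl/fl line, which was added after the data were seen, 74 genes (0.589% of those tested) were higher and 237 (1.89%) lower. These held 73 of the 475 higher (15.4%) and 232 of the 751 lower genes (30.9%). Of the 1226 genes, 31 higher and 86 lower ones (9.54%) also passed between the fl/fl lines, and 1 higher and 4 lower between the ΔIEC lines. When the cultures of a line were summed, which left 2 lines against 2, edgeR called 10 of 13871 genes (0.0721%), although 2936 had an unadjusted p under 0.05. The 3 higher ones (0.0216%) were Tubb2b, Ifitm3 and Dmbt1, and the 7 lower ones (0.0505%) included Nrn1, Defa23, Aldh1l1, Ndufa4l2, Gas6 and Eif4a2.

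Among lower genes, Nrn1, which encodes the membrane-anchored protein neuritin, had the smallest p and the largest decrease. It had 0, 1, 1 and 1 counts in the ΔIEC and 112, 168, 71 and 84 in the fl/fl cultures, so it was all but undetected in one genotype (ratio 144, exact 95% interval 48.9 to 701 for fl/fl over ΔIEC, adjusted p = 1.08e-09). Ndufa4l2, a mitochondrial protein induced by hypoxia, was at 7.31, 8.37, 4.83 and 9.97 CPM in ΔIEC and at 52.01, 62.3, 57.6 and 41.7 CPM in fl/fl cultures (log2 fold change -2.79, SE 0.24, adjusted p = 4.05e-07). Aldh1l1, a cytosolic enzyme of folate metabolism, was at 60.6, 62.5, 56.3 and 71.4 CPM in ΔIEC and at 171, 167, 145 and 135 CPM in fl/fl cultures (log2 fold change -1.30, SE 0.10, adjusted p = 1.99e-07). In all 3 genes the highest ΔIEC culture was far under the lowest fl/fl culture.

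Gas6, a ligand of the TAM receptor kinases that act in clearance of dying cells, was at 47.9, 58.6, 61.9 and 64.8 CPM in ΔIEC and at 167, 174, 152 and 173 CPM in fl/fl cultures (log2 fold change -1.53, SE 0.14, adjusted p = 8.29e-07). The groups did not overlap, and both fl/fl lines were at a similar level. Opa1, the GTPase that fuses inner mitochondrial membranes, fell from 133 ± 6.71 to 64.6 ± 10.99 CPM (SD, n = 4), and Eif4a2, an RNA helicase of translation initiation, from 448 ± 33.9 to 220.3 ± 23.5 CPM. Camk2n1 (an inhibitor of CaM kinase II, log2 fold change -2.01), Cox7a1 (a cytochrome oxidase subunit, -1.20), Acsf2 (an acyl-CoA synthetase, -1.02), Ppp1r3b (a glycogen-targeting phosphatase subunit, -1.02) and Specc1l (a cytoskeletal protein, -0.65) were also among the genes with the smallest p, as were the α-defensins Defa23 and Defa24.

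Of the largest decreases, several were in genes of few counts. Wfdc16 had 1, 1, 2 and 2 counts in the ΔIEC and 35, 55, 4 and 32 in the fl/fl cultures (ratio 20.9, exact 95% interval 9.32 to 57.9), with the fewest fl/fl counts in culture 3, and it missed the threshold without line 1290. Aqp5, a water channel, had 1, 4, 0 and 4 counts in the ΔIEC and 41, 67, 3 and 14 in the fl/fl cultures (ratio 13.8, exact 95% interval 7.04 to 30.9). Its groups overlapped, because ΔIEC culture 4 was above fl/fl culture 3, and it missed the threshold without ΔIEC culture 1 or fl/fl culture 2 (adjusted p up to 0.0114).

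Among higher genes, Tubb2b, a β-tubulin, had the smallest p. It was at 65.8, 66.2, 63.9 and 65.2 CPM in ΔIEC and at 19.9, 13.3, 19.04 and 15.5 CPM in fl/fl cultures (log2 fold change 1.97, SE 0.13, adjusted p = 1.15e-08). Dmbt1, a secreted scavenger receptor of mucosal surfaces, was at 1168, 989, 817 and 795 CPM in ΔIEC and at 197, 214, 315 and 279.5 CPM in fl/fl cultures (log2 fold change 1.91, SE 0.15, adjusted p = 1.80e-07). Ifitm3, an interferon-inducible membrane protein that restricts virus entry, was at 89.6, 91.8, 103 and 104 CPM in ΔIEC and at 37.99, 36.7, 44.4 and 45.2 CPM in fl/fl cultures (log2 fold change 1.24, SE 0.10, adjusted p = 1.80e-07). In all 3 genes the lowest ΔIEC culture was above the highest fl/fl culture.

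Gpx2, the glutathione peroxidase of the gut epithelium, was at 457 ± 31.9 CPM in ΔIEC against 232 ± 30.8 CPM in fl/fl cultures (log2 fold change 0.98, SE 0.09, adjusted p = 9.51e-07). Nox1, the NADPH oxidase of the intestinal epithelium, was at 64.8, 49.95, 78.01 and 53.99 CPM in ΔIEC and at 11.98, 13.5, 31.3 and 14.4 CPM in fl/fl cultures (1.87, SE 0.23). Both enzymes had no overlap between groups. Acot1, a cytosolic acyl-CoA thioesterase with near-identical paralogs among which reads may be split, rose from 2.55 ± 0.913 to 17.3 ± 1.24 CPM (2.81, SE 0.26). Coq6, an enzyme of ubiquinone synthesis that lies 0.343 Mb from Acot1 on chromosome 12, rose by 0.82 (SE 0.11). Fn1 and Thbs1, which encode the matrix proteins fibronectin and thrombospondin, were among the largest increases, Fn1 from 3.14 ± 0.562 to 16.1 ± 3.32 CPM (2.36, SE 0.30) and Thbs1 from 2.44 ± 0.253 to 12.2 ± 5.20 CPM (2.26, SE 0.31). Klhdc4 (1.00), Ddx39 (an RNA helicase, 0.81), Myo5c (an unconventional myosin, 0.79), Cnn3 (an actin-binding calponin, 0.76) and Kcne3 (a potassium channel subunit, 0.58) were also among the genes with the smallest p, as was the stem cell factor Ascl2. Clca3b (1.70, SE 0.20) was at 108 and 109 CPM in line 1293, 261 and 224 CPM in line 1294 and 579.6, 549, 572 and 567 CPM in ΔIEC cultures.

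**Figure D3:**
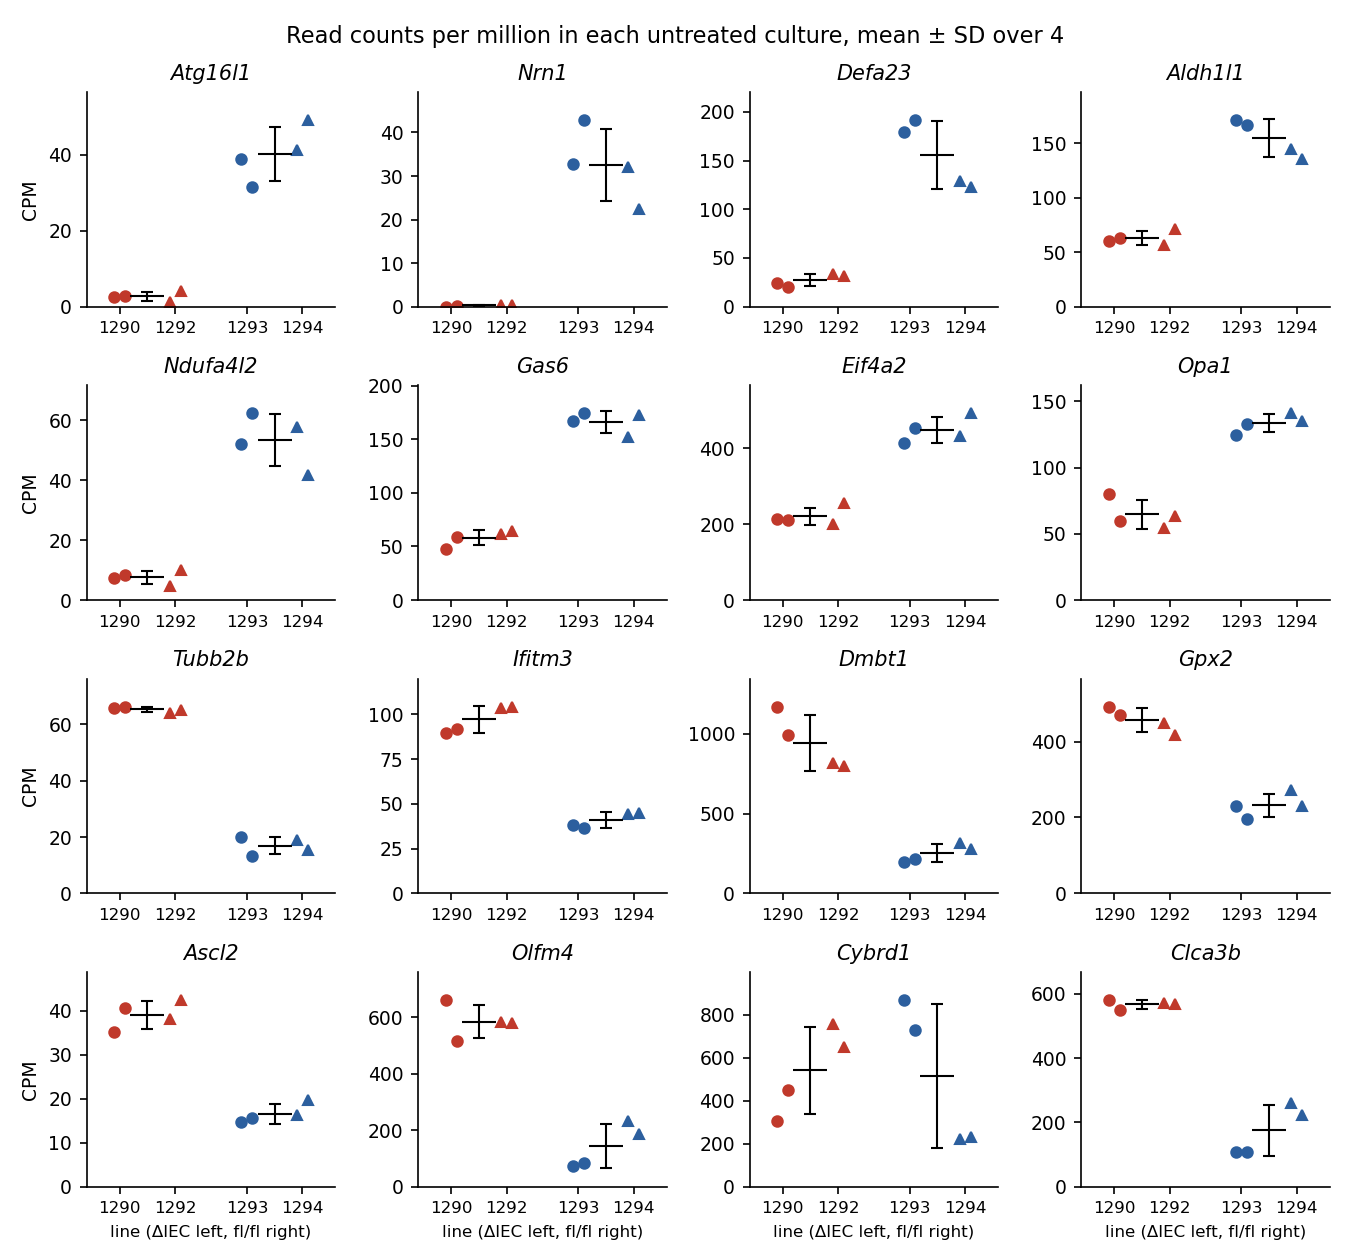
Level in CPM (vertical axis, from 0) of 16 genes in each untreated culture by line (red ΔIEC, blue fl/fl, with circles and triangles for the first and second line of a genotype), with the mean ± SD of 4 cultures in black. In 15 of the genes the genotypes do not overlap, whereas in Cybrd1 the fl/fl lines lie far apart.

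The 44 tested genes of the autophagy machinery held 0 higher and 4 lower ones (against 3.78% and 5.98% of all tested genes), the deleted gene included. Fold changes were negative in 32 and positive in 12, with a median log2 fold change of -0.15. Without overlap between groups, 1 was higher and 13 were lower (against 10.6% and 12.6% of all tested genes). Here and for most lists that follow, counts are also given for the left-out cultures or lines and the settings that moved them by more than 1.5 times, other than summed lines and a threshold of 0.05. Lower autophagy genes numbered 2 with the untreated cultures alone or with limma-voom and duplicateCorrelation on the line, 2 without ΔIEC culture 1 and 2 without line 1290, 1292 or 1293. In the conjugation complex 1 of 7 members passed, Atg16l1 itself. Atg5 (0.16, adjusted p = 0.37), Atg12 (-0.28, adjusted p = 0.019) and Atg7 (-0.06, adjusted p = 0.73) did not pass. The other lower genes were Bnip3, a receptor for mitochondria that is also a hypoxia target (178, 167, 147 and 168 against 238, 266, 261 and 247 CPM, -0.61, SE 0.09), Atg4c, a protease that processes ATG8 proteins (-0.58, SE 0.12), and Optn, a cargo receptor (-0.38, SE 0.08). Atg4c missed the threshold without ΔIEC culture 1 or 4 or fl/fl culture 1 (adjusted p up to 0.0141), and Optn without ΔIEC culture 1 (adjusted p up to 0.0195). The cargo receptor Sqstm1 (p62) was at 166 ± 27.00 against 168 ± 23.9 CPM and Map1lc3b (LC3B) at 66.7 ± 6.99 against 61.8 ± 8.41 CPM, and neither passed. Protein amounts and autophagic flux were not measured. Atg5, Atg12, Atg7, Sqstm1 and Map1lc3b were named after their values were seen.

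Of 53 tested lysosomal genes, 1 was higher and 9 lower (against 3.78% and 5.98% of all), with a median of -0.20. The 28 hydrolases held 6 of the lower genes. Glb1, the lysosomal β-galactosidase, was at 70.5, 70.1, 61.5 and 76.01 CPM in ΔIEC and at 140.0, 148, 114 and 127 CPM in fl/fl cultures (log2 fold change -0.93, SE 0.10, adjusted p = 9.19e-06), without overlap. The sialidase Neu1 was also lower (-0.76, SE 0.12). Gusb, β-glucuronidase, was the higher gene (0.60, SE 0.11). Lower lysosomal genes numbered 5 with counts thinned to the smallest library or with limma-voom and duplicateCorrelation on the line. Their number was 5 without ΔIEC culture 2 or fl/fl culture 1 or 2. It was 4 without line 1290 or 1292, 1 without line 1293 and 17 without line 1294. In all 4 line pairs, 2 lysosomal genes passed as lower (against 1.89% of all tested genes).

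Paneth cell granule genes had the lowest median of the lists examined. Of 19 tested granule genes, 13 were lower (against 5.98% of all tested genes) and 0 higher, all 19 fold changes were negative, the median was -1.62 and 14 did not overlap between groups (against 12.6% of all tested genes). In all 4 line pairs, 11 granule genes passed as lower (against 1.89% of all tested genes). Defa23 was at 24.3, 19.9, 32.97 and 31.2 CPM in ΔIEC and at 179, 192, 129 and 123 CPM in fl/fl cultures (log2 fold change -2.56, SE 0.17, adjusted p = 1.17e-08). Defa24 was at 761, 859, 1163 and 1156 CPM in ΔIEC and at 3794, 3233, 2643 and 2393 CPM in fl/fl cultures (log2 fold change -1.62, SE 0.16, adjusted p = 2.70e-06). In both genes the groups were far apart, with line 1290 the lowest.

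Defa30 (-2.50, SE 0.28) and Defa26 (-1.74, SE 0.19) were also lower, as were Defa21, Defa22, Defa29 and Defa5, named after their values were seen, with log2 fold changes from -3.00 to -2.51. Defa21, Defa22, Defa29 and Defa5 had few counts, with means from 0.487 to 4.25 CPM in ΔIEC and from 3.84 to 22.6 CPM in fl/fl cultures. Mptx2, a mucosal pentraxin made by Paneth cells, had 4, 1, 2 and 2 counts in the ΔIEC and 26, 41, 23 and 22 in the fl/fl cultures (ratio 12.4, exact 95% interval 6.28 to 27.7). The granule genes that did not pass included the lysozyme gene Lyz1, at 1723 ± 187 against 2124 ± 376 CPM (-0.30, SE 0.12, adjusted p = 0.083), and the defensin-activating protease Mmp7 (-0.67, adjusted p = 0.012), both also named after their values were seen. The 3 transcription factors on the list, Sox9, Spdef and Xbp1, did not pass, and their median was -0.06. The summed level of granule genes was 3303 to 4352 CPM in ΔIEC, 8074 to 8680 CPM in line 1293 and 6032 to 6364 CPM in line 1294. The number of lower Paneth genes was 8 without line 1290, 15 without line 1292, 9 without line 1293 and 16 without line 1294, against 13 with all lines. It was 6 of the 15 with at least 10 counts in every culture. The median of the Paneth list was -0.70 over these 15 genes, against -1.12 over all 22 tested. α-Defensin genes are near-identical copies clustered on chromosome 8, and HTSeq leaves out reads that align to several places, so how reads are split among single Defa genes is uncertain.

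How alike these genes are shows in the 250 bases before their start sites, given here for 3 lower defensins because their upstream sequences carry the same short motif. The promoters are from RefSeq on GRCm38.p6, all on the plus strand, at chr8:21025295-21025544 (Defa21), chr8:21054790-21055039 (Defa23) and chr8:21134400-21134649 (Defa30). Capitals mark each match to CTTTGAT or its reverse complement ATCAAAG, a core bound by TCF proteins of the Wnt pathway.
Defa21: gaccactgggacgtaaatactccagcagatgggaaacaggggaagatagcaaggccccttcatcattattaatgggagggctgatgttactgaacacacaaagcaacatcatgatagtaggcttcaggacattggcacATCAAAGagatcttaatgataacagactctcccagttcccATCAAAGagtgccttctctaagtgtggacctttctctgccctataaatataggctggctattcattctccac
Defa23: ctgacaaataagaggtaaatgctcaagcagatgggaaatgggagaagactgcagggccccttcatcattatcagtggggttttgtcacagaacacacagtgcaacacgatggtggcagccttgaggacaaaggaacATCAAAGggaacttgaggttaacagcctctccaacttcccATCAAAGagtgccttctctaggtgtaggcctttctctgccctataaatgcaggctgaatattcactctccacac
Defa30: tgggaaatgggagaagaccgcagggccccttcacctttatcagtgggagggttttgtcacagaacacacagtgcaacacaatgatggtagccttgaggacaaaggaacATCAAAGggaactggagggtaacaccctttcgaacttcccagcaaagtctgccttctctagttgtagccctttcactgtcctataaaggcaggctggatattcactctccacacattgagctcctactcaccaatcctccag
The promoter of Defa22 was identical to that of Defa21 over all 250 bases, whereas aligned bases were 80.5% identical between Defa21 and Defa23, 77.3% between Defa21 and Defa30 and 90.9% between Defa23 and Defa30. The motif, searched on both strands, was found in 5 of the 14 Paneth genes with a promoter in the table, 4 of the 8 lower ones among them, and in 3.23% of 27025 promoters. The 4 lower ones were Defa21, Defa22, Defa23 and Defa30. They are similar copies near one another on chromosome 8, so their matches are not independent of each other. A match describes the letters and not binding.

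Some goblet genes were lower, and the lines differed. Of 14 tested goblet genes 0 were higher and 4 lower (against 3.78% and 5.98% of all tested genes), with a median of -0.62. The tested genes included 1 without a read in any of the 8 untreated cultures. Muc2, the secreted gel-forming mucin, was at 31.1, 34.9, 41.8 and 54.4 CPM in ΔIEC and at 75.97, 70.7, 66.2 and 88.5 CPM in fl/fl cultures (log2 fold change -0.93, SE 0.18, adjusted p = 0.00115), and the groups did not overlap. Agr2, a folding enzyme for mucins, fell from 208 ± 9.46 to 139 ± 11.5 CPM (-0.59, SE 0.09). The trefoil peptide gene Tff3 (-0.76) missed the threshold without ΔIEC culture 1, 2, 3 or 4 or fl/fl culture 1 or 2 (adjusted p up to 0.0419), and Bcas1 (-1.28) without ΔIEC culture 1 or 2 or fl/fl culture 1 or 4 (adjusted p up to 0.0259). The median of the list was -0.90 for line 1290 against line 1293 and 0.04 for line 1292 against line 1294. Lower goblet genes numbered 7 without a filter, 2 with counts thinned to the smallest library, 2 without ΔIEC culture 1 or 2 or fl/fl culture 1 and 2 without line 1290 or 1293.

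Of 16 enteroendocrine genes 0 were higher and 4 lower (against 3.78% and 5.98% of all tested genes), with a median of -0.86. They were Scg2, a granin (4.01, 5.91, 7.24 and 6.23 against 19.6, 15.3, 15.4 and 8.83 CPM, -1.37, SE 0.25), the neuropeptide gene Nts (-1.22, SE 0.25), the incretin gene Gip (-1.18, SE 0.28) and the chromogranin gene Chga (-0.81, SE 0.21). Lower enteroendocrine genes numbered 9 without a filter, 2 with the untreated cultures alone or with counts thinned to the smallest library, 1 without ΔIEC culture 1, 2 without ΔIEC culture 2 or fl/fl culture 1 or 2, 1 without line 1290, 0 without line 1293 and 8 without line 1294. The median was -1.36 for line 1290 against line 1293 and 0.02 for line 1292 against line 1294. Among single cultures, Nts missed the threshold without ΔIEC culture 1 (adjusted p up to 0.0119), Gip without ΔIEC culture 1 or 2 or fl/fl culture 1 or 2 (adjusted p up to 0.0338) and Chga without ΔIEC culture 1 or 2 or fl/fl culture 1, 2 or 4 (adjusted p up to 0.0384). Of 15 tuft cell genes, 4 were tested and 0 passed in either direction (median -0.02).

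Absorptive genes were split. Of 42 tested enterocyte genes 1 was higher and 5 lower (against 3.78% and 5.98% of all), with a median of -0.05. Maf, a transcription factor of enterocytes, was at 26.9, 32.2, 32.97 and 36.5 CPM in ΔIEC and at 83.3, 59.2, 64.4 and 60.99 CPM in fl/fl cultures (log2 fold change -1.07, SE 0.12, adjusted p = 1.01e-05). The brush border metalloprotease Mep1a (-1.08, SE 0.15) and the glucose transporter Slc5a1 (-0.60, SE 0.12) were lower too. Fabp2, the intestinal fatty acid binding protein, was higher, at 269, 215, 169 and 137 CPM in ΔIEC and at 72.5, 65.1, 103 and 95.8 CPM in fl/fl cultures (log2 fold change 1.25, SE 0.25, adjusted p = 0.00196), and missed the threshold without ΔIEC culture 1 (adjusted p up to 0.0108). Neither Maf nor Fabp2 overlapped between groups. Fabp1, a relative of Fabp2, was at 824, 739.9, 413 and 375 CPM in ΔIEC and at 186, 165, 497 and 374 CPM in fl/fl cultures, so the lines of each genotype differed and the groups overlapped (0.96, adjusted p = 0.14). Lower enterocyte genes numbered 11 without a filter, 3 without ΔIEC culture 3 or 4 or fl/fl culture 1, 9 without line 1290 and 3 without line 1292, and higher ones 6 without a filter, 3 with the untreated cultures alone, 0 without ΔIEC culture 1 and 4 without line 1292.

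Of 8 tested genes of the distal small intestine 0 were higher and 4 lower (against 3.78% and 5.98% of all), with a median of -1.06, and of 8 proximal genes 0 were higher and 0 lower, with a median of -0.24 that was 0.15 without line 1293. The lower distal genes were Nts and Mptx2, given above, Cubn and Fgf15, and their number was 2 without ΔIEC culture 1 and 2 without line 1293. Cubn, the receptor for intrinsic factor with vitamin B12, was at 5.89, 4.92, 3.22 and 3.32 CPM in ΔIEC and at 33.02, 22.97, 12.2 and 17.1 CPM in fl/fl cultures (log2 fold change -2.25, SE 0.31, adjusted p = 7.73e-05), without overlap. Fgf15, the bile acid-induced hormone of the ileum, had 1, 1, 3 and 3 counts in the ΔIEC and 42, 36, 3 and 8 in the fl/fl cultures (ratio 11.0, exact 95% interval 5.37 to 26.4), mostly in line 1293, and it missed the threshold without ΔIEC culture 1 or 2 or fl/fl culture 1 or 2 (adjusted p up to 0.0158) and without line 1290 or 1293. Where along the small intestine each line was taken is not given in the sources used here, and its part in these differences was not tested.

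Crypt genes did not move as a block. Of 17 tested stem cell genes 4 were higher and 1 lower (against 3.78% and 5.98% of all), with a median of 0.13. Olfm4, a secreted glycoprotein that marks crypt base stem cells, was at 660.2, 517, 581 and 579 CPM in ΔIEC and at 73.3, 83.2, 234 and 187 CPM in fl/fl cultures (log2 fold change 2.04, SE 0.28, adjusted p = 7.08e-05). Ascl2, the Wnt-driven transcription factor of these cells, was at 35.1, 40.6, 38.2 and 42.4 CPM in ΔIEC and at 14.6, 15.6, 16.3 and 19.8 CPM in fl/fl cultures (log2 fold change 1.23, SE 0.15, adjusted p = 2.05e-05). Cd44, the hyaluronan receptor, was higher too (0.73, SE 0.11), and none of these 3 genes overlapped between groups. Lgr5, the receptor that defines crypt base columnar cells, was at 68.7 ± 21.2 against 101 ± 9.72 CPM and did not pass (-0.58, SE 0.22, adjusted p = 0.066), and it was named after its values were seen. Smoc2 (0.35) missed the threshold without ΔIEC culture 1, 2 or 4 or fl/fl culture 1, 2 or 3 (adjusted p up to 0.0237). The lower stem cell genes numbered 3 without a filter, 0 without ΔIEC culture 1 or 2 or fl/fl culture 1 or 2, 0 without line 1290 or 1293 and 2 without line 1292.

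Some genes of DNA replication and cell division were higher, and the fl/fl lines also differed in these lists. Of 30 S phase genes 8 were higher and 0 lower (against 3.78% and 5.98% of all tested genes), and 29 had a positive fold change (median 0.46). Of 30 mitosis genes 6 were higher and 0 lower, and all 30 were positive (median 0.41). Tyms, thymidylate synthase, was at 71.7, 66.9, 63.9 and 84.7 CPM in ΔIEC and at 33.02, 22.7, 41.7 and 39.9 CPM in fl/fl cultures (1.08, SE 0.16), and Plk1, a mitotic kinase, at 102, 102, 98.9 and 100.1 CPM in ΔIEC and at 51.7, 54.1, 72.5 and 78.4 CPM in fl/fl cultures (0.66, SE 0.13). Neither overlapped, but line 1293 was the lowest for Plk1. The replicative helicase genes Mcm3 (0.68) and Mcm5 (0.73) and the mitotic activator Cdc20 (0.63) were higher too. The S phase list summed to 2966 to 3043 CPM in ΔIEC, 1881 to 1911 CPM in line 1293 and 2661 to 2674 CPM in line 1294. Higher S phase genes numbered 16 without a filter, 5 with counts thinned to the smallest library, 4 without ΔIEC culture 1, 3 without ΔIEC culture 2 or fl/fl culture 1 or 2, 5 without ΔIEC culture 4, 2 without line 1290 or 1293, 3 without line 1292 and 20 without line 1294. Higher mitosis genes numbered 18 without a filter, 2 with counts thinned to the smallest library, 3 without ΔIEC culture 1 or fl/fl culture 1, 2 without fl/fl culture 2, 11 without fl/fl culture 3, 1 without line 1290, 3 without line 1292, 0 without line 1293 and 25 without line 1294. In all 4 line pairs, 3 S phase and 0 mitosis genes passed as higher (against 0.589% of all tested genes). The median of the mitosis list was 0.72 for line 1290 against line 1293, 0.14 for line 1292 against line 1294 and 0.52 for fl/fl line 1294 against fl/fl line 1293.

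Most glycolytic and hypoxia-induced genes were lower. Of 24 tested genes 0 were higher and 15 lower (against 3.78% and 5.98% of all tested genes), all 24 fold changes were negative and 19 did not overlap between groups (against 12.6% lower without overlap among all), with a median of -0.53. The summed level was 23930 to 26970 CPM in ΔIEC and 32340 to 34760 CPM in fl/fl cultures. The median ranged from -0.57 to -0.44 over the 4 pairs of a ΔIEC and a fl/fl line. It was 0.04 between the ΔIEC lines and -0.04 between the fl/fl lines. In all 4 pairs 13 of the genes passed as lower (against 1.89% of all tested genes). The number of lower genes was 10 without line 1290, 14 without line 1292, 8 without line 1293 and 14 without line 1294.

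Gpi1, glucose phosphate isomerase, was at 1433, 1626, 1413 and 1444 CPM in ΔIEC and at 2386, 2397, 2024 and 2517 CPM in fl/fl cultures (log2 fold change -0.66, SE 0.09, adjusted p = 7.42e-05). Gapdh fell from 3862 ± 160.4 to 2629 ± 259 CPM (-0.56, SE 0.10) and Pkm, pyruvate kinase, from 4345 ± 191 to 3488 ± 166 CPM (-0.32, SE 0.07). Ldha, lactate dehydrogenase, was at 4577 ± 177 against 4727 ± 178 CPM and did not pass (-0.05, adjusted p = 0.66). Of the hypoxia targets, Car9, a carbonic anhydrase, was at 297, 338, 312 and 305 CPM in ΔIEC and at 508, 532, 447 and 511 CPM in fl/fl cultures (log2 fold change -0.68, SE 0.08, adjusted p = 1.13e-05). Neither Gpi1 nor Car9 overlapped between groups. Ankrd37 fell from 166 ± 18.5 to 99.3 ± 9.70 CPM (-0.75, SE 0.10), and the kinase Pdk1, which blocks entry of pyruvate into the citric acid cycle, was lower too (-0.51, SE 0.07). So were the growth factor gene Vegfa (-0.91), Ndrg1 (-0.97) and Pgk1, phosphoglycerate kinase (-0.46). Gapdh, Pkm, Ldha, Vegfa, Ndrg1 and Pgk1 were named after their values were seen.

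The promoters of 3 lower genes of this list are shown because they hold the core of the element bound by hypoxia-inducible factors, ACGTG or GCGTG, searched on both strands and marked in capitals (CACGT and CACGC on the other strand, with overlapping matches in Ankrd37). They are from RefSeq on GRCm38.p6, 250 bases before the start, at chrX:106186850-106187099 on the plus strand (Pgk1), chr4:43506776-43507025 on the plus strand (Car9) and chr8:45999851-46000100 on the minus strand (Ankrd37).
Pgk1: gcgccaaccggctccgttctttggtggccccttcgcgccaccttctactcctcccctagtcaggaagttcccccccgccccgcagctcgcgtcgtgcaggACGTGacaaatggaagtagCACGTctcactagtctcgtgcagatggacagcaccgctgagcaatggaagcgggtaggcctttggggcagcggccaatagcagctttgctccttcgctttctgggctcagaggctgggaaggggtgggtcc
Car9: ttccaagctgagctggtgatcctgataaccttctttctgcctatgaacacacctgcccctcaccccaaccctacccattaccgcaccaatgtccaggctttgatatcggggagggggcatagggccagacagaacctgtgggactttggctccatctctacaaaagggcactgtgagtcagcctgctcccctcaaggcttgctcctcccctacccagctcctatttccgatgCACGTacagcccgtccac
Ankrd37: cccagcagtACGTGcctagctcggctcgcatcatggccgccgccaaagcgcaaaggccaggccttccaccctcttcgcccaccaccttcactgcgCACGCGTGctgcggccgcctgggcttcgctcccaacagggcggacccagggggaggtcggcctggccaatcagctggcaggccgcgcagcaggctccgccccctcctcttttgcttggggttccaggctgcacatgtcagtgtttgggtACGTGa
Pgk1 held 2 matches, Car9 1 and Ankrd37 4. The motif occurred in 16 of the 22 list members with a promoter in the table, 10 of the 14 lower ones among them, and in 38.6% of all 27025 promoters. No binding was measured.

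**Figure D4:**
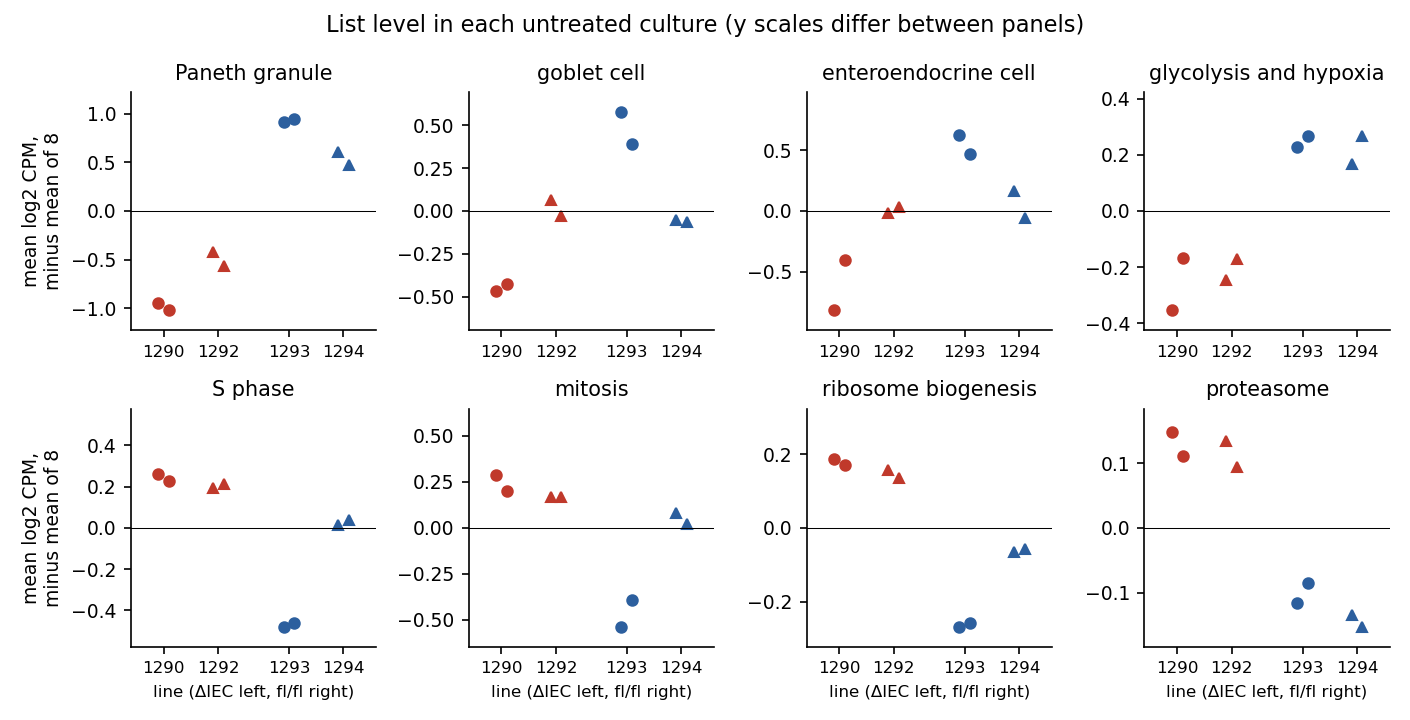
Level of 8 gene lists in each untreated culture, as the mean over members of log2 CPM minus the mean of the 8 cultures (vertical axis, scales differ between panels), by line (red ΔIEC, blue fl/fl). Paneth granule, glycolysis and hypoxia, and proteasome levels separate both ΔIEC lines from both fl/fl lines. By the same measure, S phase, mitosis and ribosome biogenesis levels are also higher in every ΔIEC culture than in every fl/fl culture. In these lists line 1294 is the fl/fl line nearer to the ΔIEC cultures. Goblet levels do not separate the genotypes, and those of line 1294 lie at or below those of line 1292.

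A few mitochondrial genes were lower. Of 32 nuclear-encoded respiratory chain genes 0 were higher and 4 lower (against 3.78% and 5.98% of all tested genes), and 29 had a negative fold change (median -0.15). The list summed to 10920 to 13250 CPM, and calls were more frequent at high levels. At mean levels of 100 to 1000 CPM, 214 of 2123 tested genes were lower, so 4 of 32 is near the share at that level. The number of lower respiratory chain genes was 2 with counts thinned to the smallest library or with limma-voom and duplicateCorrelation on the line, 1 without ΔIEC culture 1, 2 or 3 or fl/fl culture 1 or 2, 2 without ΔIEC culture 4 or fl/fl culture 4 and 1 without line 1290, 1292 or 1293. Ndufs3, a complex I subunit, was at 66.5, 59.5, 55.1 and 73.9 CPM in ΔIEC and at 112, 110.2, 101 and 95.5 CPM in fl/fl cultures (log2 fold change -0.72, SE 0.10, adjusted p = 1.04e-04). Ppargc1a, the coactivator PGC-1α of mitochondrial biogenesis, was at 28.1, 23.1, 14.5 and 19.9 CPM in ΔIEC and at 49.7, 46.96, 48.96 and 53.2 CPM in fl/fl cultures (log2 fold change -1.18, SE 0.15, adjusted p = 4.76e-05). Neither overlapped between groups. Of 8 tested genes of the mitochondrial genome 0 were higher and 3 lower, mt-Co1 among the lower (4812, 4312, 4070.2 and 4596 against 6679, 6229.7, 7689.7 and 9939.8 CPM, -0.78, SE 0.14), and the number of lower ones was 1 without ΔIEC culture 2, 3 or 4 or fl/fl culture 3 or 4, 0 without line 1290 or 1292 and 1 without line 1294. The median of these genes was -0.24, but it was 0.25 and 0.15 for lines 1290 and 1292 against line 1293, and -0.50 and -0.59 against line 1294, the line with the highest mitochondrial share.

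Of 39 tested interferon-stimulated genes 5 were higher and 0 lower (against 3.78% and 5.98% of all tested genes), with a median of 0.14. They were Ifitm3, given above, Lgals3bp, a secreted glycoprotein (304, 332, 344 and 325 against 274, 251, 230.3 and 216 CPM, 0.42, SE 0.08), Lgals9 (0.27, SE 0.07), Oas1g and Ifit2. Oas1g, an oligoadenylate synthetase with close paralogs, had 10, 15, 6 and 11 counts in the ΔIEC and 2, 2, 1 and 2 in the fl/fl cultures, without overlap (ratio of ΔIEC over fl/fl 6.06, exact 95% interval 2.69 to 15.9). Ifit2 was at 4.46 ± 2.21 against 1.41 ± 0.528 CPM (log2 fold change 1.64, SE 0.41, adjusted p = 0.00867). These values rest on few reads, since 3 counts equal 0.766 to 1.36 CPM in fl/fl cultures. The median was 0.35 over 28 effectors and -0.02 over 11 sensors and transcription factors. Ifit2 was named after its values were seen. Lgals9 missed the threshold without ΔIEC culture 1, 2 or 3 or fl/fl culture 2, 3 or 4 (adjusted p up to 0.0244). The number of higher genes of the list was 11 without a filter, 3 with at least 10 counts in every culture, with counts thinned to the smallest library or with limma-voom and duplicateCorrelation on the line, 3 without ΔIEC culture 1 or 2 or fl/fl culture 2 or 3, 2 without line 1290 or 1294 and 3 without line 1292. The median of the list was -0.02 in a fit of the 8 untreated cultures alone, which kept 30 of its genes. It was -0.05 over the 26 genes with at least 10 counts in every culture. Of 14 MHC class I and immunoproteasome genes 0 were higher and 2 lower (median 0.02). The lower ones were the paralogs H2-Q1 (56.1, 66.2, 62.3 and 61.9 against 120.4, 111, 97.9 and 120.4 CPM, -0.87, SE 0.11) and H2-Q2 (-0.79, SE 0.12), among which reads may be split. Of 6 MHC class II genes 0 were higher and 0 lower, and the filter on the untreated cultures alone kept 3 of them.

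The unfolded protein response and ATF4 lists held genes past the threshold in both directions. Their lower genes were near the share of lower genes among all tested genes. Of 32 unfolded protein response genes, 12 were higher and 3 lower without overlap between groups (against 10.6% and 12.6% of all tested genes). In all 4 line pairs, 2 passed as higher and 0 as lower (against 0.589% and 1.89% of all). In the comparison of genotypes 5 were higher and 2 lower (against 3.78% and 5.98% of all tested genes), with a median of 0.07. The number of higher ones was 1 with counts thinned to the smallest library, 3 with limma-voom and duplicateCorrelation on the line, 3 without ΔIEC culture 1 or 3 or fl/fl culture 2, 2 without ΔIEC culture 2 or fl/fl culture 1, 2 without line 1290 or 1293 and 3 without line 1292 or 1294. That of lower ones was 1 with counts thinned to the smallest library, 0 with limma-voom and duplicateCorrelation on the line, 0 without ΔIEC culture 1 or fl/fl culture 1 or 2, 1 without ΔIEC culture 2, 3 or 4, 0 without line 1290 or 1293 and 1 without line 1292. Creld2, a protein of the endoplasmic reticulum induced by misfolding, was at 38.4, 41.1, 40.2 and 44.9 CPM in ΔIEC and at 18.4, 19.9, 26.7 and 20.9 CPM in fl/fl cultures (log2 fold change 0.95, SE 0.13, adjusted p = 7.08e-05), without overlap, and the co-chaperone Dnajb11 was higher too (0.58, SE 0.11). The main chaperone Hspa5 (BiP), named after its values were seen, was at 726 ± 17.95 against 607 ± 29.8 CPM and did not pass (0.26, adjusted p = 0.015). Of 26 genes of the ATF4 and amino acid response 3 were higher and 2 lower (median -0.06), and the lower ones included Ddit3 (CHOP, 23.3, 32.5, 27.3 and 28.7 against 61.9, 62.5, 40.3 and 52.97 CPM, -0.98, SE 0.19), without overlap. Higher ATF4 genes numbered 1 with counts thinned to the smallest library or with limma-voom and duplicateCorrelation on the line, 1 without ΔIEC culture 2, 3 or 4 or fl/fl culture 3, 0 without line 1290 or 1292 and 1 without line 1293, and lower ones 1 without ΔIEC culture 1, 2 or 3 or fl/fl culture 3 or 4 and 1 without line 1290 or 1294.

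Of 31 glutathione and NRF2 genes 5 were higher and 0 lower (against 3.78% and 5.98% of all), with a median of -0.10. The higher ones included Gpx2, the glutathione transferase Gsta3 (259, 260.3, 238 and 216 against 140.0, 164, 163 and 156 CPM, 0.65, SE 0.09) and the pentose phosphate enzyme Pgd (0.61, SE 0.11). Their number was 2 without line 1290, and that of lower genes 1 with DESeq2, with the untreated cultures alone or with limma-voom and duplicateCorrelation on the line, 4 without a filter, 2 without fl/fl culture 3, 3 without line 1290 or 1294 and 1 without line 1292. Gstm3, another glutathione transferase, was at 609, 632, 328 and 312 CPM in ΔIEC and at 847, 858, 938 and 982 CPM in fl/fl cultures, so it differed between the ΔIEC lines and did not pass (-0.94, adjusted p = 0.026). Of 21 NF-κB and chemokine genes 1 was higher and 1 lower (median 0.11), and of 23 cell death genes 0 were higher and 2 lower (median -0.04).

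**Figure D5:**
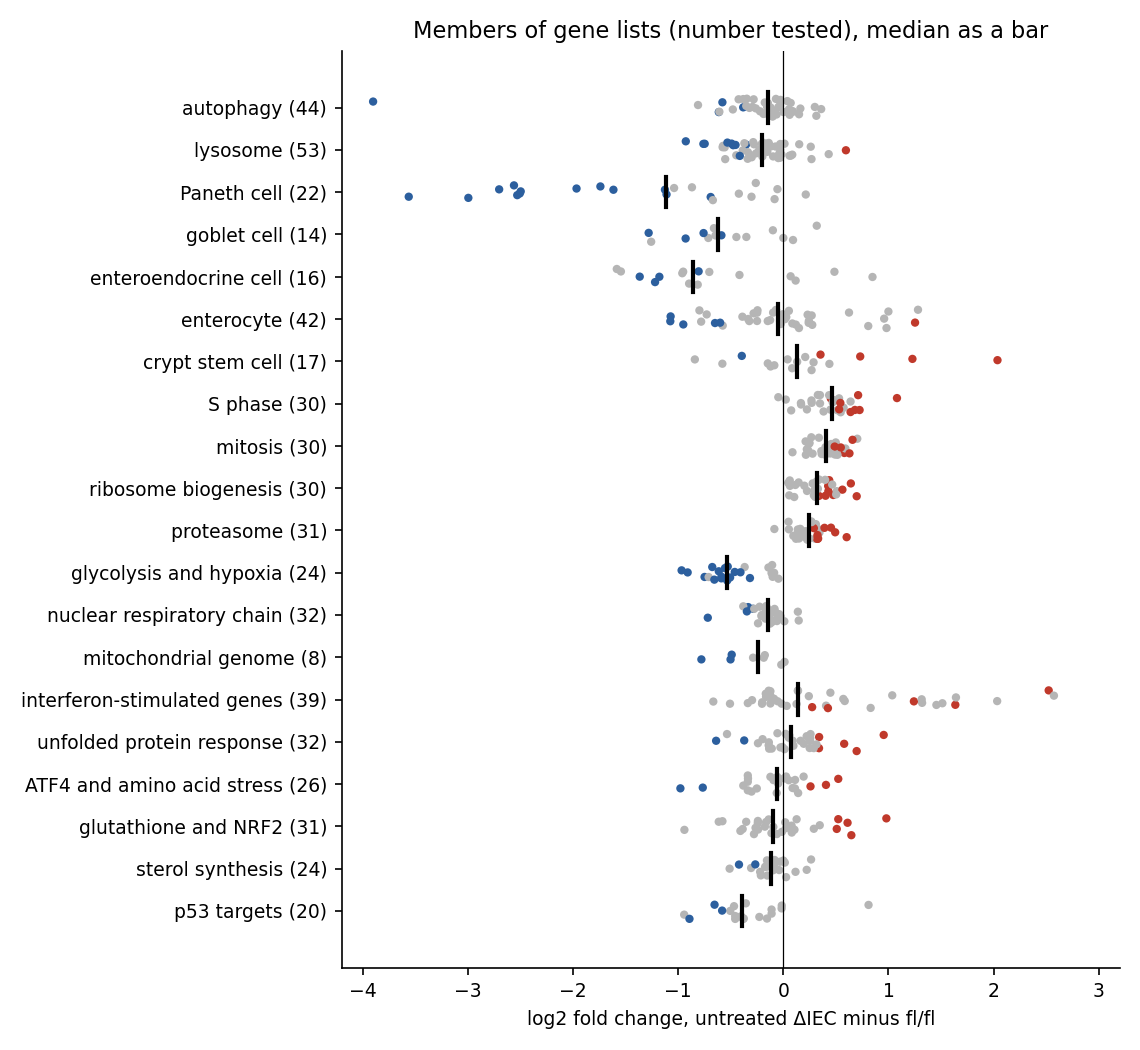
Log2 fold change (ΔIEC minus fl/fl, horizontal axis) of each tested member of 20 gene lists, with the number tested in parentheses, red and blue for members higher and lower at an adjusted p under 0.01, grey for the rest and a black bar for the list median. The medians are -1.12 for the Paneth cell list, -0.53 for glycolysis and hypoxia and 0.46 for S phase.

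The same genes were read in IL-22-treated cultures of the same 4 lines, which share the lines but no library with the untreated cultures. There, 2481 genes passed (19.8% of those tested), 9.91% higher and 9.84% lower in ΔIEC. Of the 475 higher genes 470 had the same direction there and 391 also passed, and of the 751 lower genes 744 had the same direction and 575 passed. Nrn1 (-7.51), Defa23 (-2.24), Gas6 (-1.78) and Opa1 (-1.18) had negative and Tubb2b (1.04), Ifitm3 (1.10) and Dmbt1 (1.05) positive log2 fold changes in the treated cultures. Because the lines are the same, this does not separate genotype from line.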

How the data were processed

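RNA of organoids was sequenced with paired ends, and the submitters' processing notes name cutadapt, TopHat2, HTSeq and DESeq2 with mm10/GRCm38, without versions. Labels and methods name different TruSeq kits, unstranded and stranded. The strand setting and annotation release are not given in the sources used here, so reads of overlapping antisense genes may not be told apart. The deposited values are whole-number counts per gene without normalization, as the authors obtained them from HTSeq. In untreated cultures 37.0% to 38.3% of the table's reads were on genes, and summary entries (38.2% to 40.1% without a feature, 21.5% to 23.8% not unique) were left out. Gene counts were 2135000 to 4024054 per culture, and intervals cover counting error only. Gene positions come from the GENCODE annotation of GRCm38.

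Counts were tested with edgeR 4.0.16 in R 4.3.3 (TMM, two-sided quasi-likelihood test, 1 fit of 16 cultures with 4 group means, Benjamini-Hochberg over the 12559 genes kept by its filter, threshold 0.01), with the SE as absolute log2 fold change over the root of F. Named genes were Atg16l1, the 15 in each direction with the smallest p and the 5 with the largest change (mean of at least 5 CPM in the higher group, no predicted genes), up to 4 per gene list and 3 per pair of lines, and Xist with Y-linked genes, of which the text names those with a result to give; some items are not reported here. The comparison, lists and members were chosen with earlier results of these data known. Calculations were tested on simulated counts, drawn independently for each culture and without differences between lines. Error rates with lines nested in genotype were therefore not tested. Alternatives were DESeq2 1.42.0, RLE, no filter or at least 10 counts per culture, thinned counts, untreated cultures alone, lines summed, limma 3.58.1 voom with duplicateCorrelation on the line, a threshold of 0.05, each culture or line left out and, added after seeing the data, all 4 line pairs and list counts without each line.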

Additional observations from a re-analysis of the deposited data

Results flagged for a closer look

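In groups of 4 cultures, 1 culture stood apart from the other 3 by Dixon's criterion in 6 of 190 groups examined (3.16%), the 2 genotypes of 95 named genes, and chance alone flags about 1 in 20 groups, so the flags are no more frequent than that. In ΔIEC culture 1, Camk2n1 was at 16.7 CPM (the others 22.8 to 23.1). In ΔIEC culture 2, Coq6 was at 57.8 CPM (the others 46.9 to 48.3), Cox7a1 at 27.6 CPM (the others 25.2 to 25.3) and Gpi1 at 1630 CPM (the others 1413 to 1444). In fl/fl culture 2, Ppp1r3b was at 79.1 CPM (the others 71.6 to 72.5), and in fl/fl culture 3, Nox1 was at 31.3 CPM (the others 11.98 to 14.4). In each of these genes the genotypes did not overlap, and the call held without each culture.

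The genotype effect differed between untreated and IL-22-treated cultures, by the interaction term of the same edgeR fit, in 2 named genes. Each line was grown with and without IL-22, but this fit had no term for line. The pairing within lines was therefore not used. For Gpx2 the log2 fold change was 0.98 untreated and 0.09 with IL-22, a difference of 0.89 (SE 0.12, adjusted p = 0.00724). For Mptx2 it was -3.56 untreated and -0.13 with IL-22, a difference of -3.44 (SE 0.51, adjusted p = 0.00958), on few untreated counts.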

How the results depend on the processing

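No paired analysis was possible because no line exists in both genotypes and replicate numbers only name cultures. Against 475 higher and 751 lower genes, counts were 545 and 860 with DESeq2, 484 and 727 with RLE, 426 and 687 with at least 10 counts in every culture and 450 and 689 with the untreated cultures alone. They were 748 and 1092 without a filter (725 higher ones ordered across lines), 194 and 478 with thinned counts, 271 and 506 with limma-voom (270 higher ones ordered), 1121 and 1438 at a threshold of 0.05 (1117 and 1429 ordered), 3 and 7 with lines summed and 74 and 237 in all 4 line pairs. Leaving out a culture gave 216 to 508 higher and 410 to 769 lower genes (up to 767 ordered). Counts were 126 and 319 without line 1290, 263 and 425 without line 1292, 110 and 425 without line 1293 and 691 and 948 without line 1294.

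Of 89 named genes past the threshold, 77 kept it without each culture and 58 without each line. Lost without line 1293 were Aqp5, Atg4c, Bcas1, Bop1, Cdc20, Chga, Ddit3, Fabp2, Fgf15, Gip, Gusb, Lgals9, Mcm3, Neu1, Nts, Optn, Pgd, Plk1, Scg2, Smoc2, Tcof1, Tff3 and Ugt2b34. Lost without line 1290 were Aqp5, Atg4c, Bcas1, Bop1, Chga, Dnajb11, Fgf15, Gip, Gusb, Lgals3bp, Lgals9, Mcm5, Optn, Pgd, Plk1, Scg2, Smoc2, Tff3, Wfdc16 and mt-Co1, without line 1292 Aqp5, Atg4c, Lgals3bp, Mcm5, Optn, Scd2, Slc5a1, Smoc2, Stard4, Tcof1, Ugt2b34 and mt-Co1, and without line 1294 Atg4c, Bcas1, Dnajb11, Gip, Lgals3bp, Lgals9, Optn, Slc5a1 and Stard4. Without line 1294 the direction turned for Cybrd1 (-0.57), Rsrp1 (0.18), Xist (0.0088) and the medians of the tuft (0.31), MHC class I (-0.19), fatty acid oxidation (-0.11) and mitochondrial genome (0.21) lists. Without line 1293 it turned for Clca1 (0.94) and the medians of fetal (0.78), proximal (0.15) and epithelial (0.093) genes, and without line 1290 for Clca1 (0.059). Cybrd1 was -0.41 without line 1292 and -0.18 to 0.44 without single cultures. The interferon median was -0.049 with at least 10 counts in every culture and -0.020 in untreated cultures alone. The causes were not tested. The smallest library was fl/fl culture 3 (2135000 counts), and values of genes of few counts are limited by depth.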

Other observations

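Some genes of protein turnover and synthesis were higher in ΔIEC cultures, by small amounts. Of 31 proteasome subunit genes 9 were higher and 0 lower (against 3.78% and 5.98% of all tested genes), 30 had a positive fold change and 21 did not overlap between groups (against 10.6% higher without overlap among all), with a median of 0.25 that ranged from 0.22 to 0.27 over the 4 pairs of a ΔIEC and a fl/fl line. Psmd13, a lid subunit, was at 114, 102, 108 and 101 CPM in ΔIEC and at 62.5, 69.4, 72.5 and 76.2 CPM in fl/fl cultures (log2 fold change 0.60, SE 0.08, adjusted p = 7.42e-05), without overlap, and the ATPase subunit Psmc3 was higher too (0.49, SE 0.08). The number of higher proteasome genes was 3 with counts thinned to the smallest library or with limma-voom and duplicateCorrelation on the line. It was 3 without ΔIEC culture 1, 4 without ΔIEC culture 2 or 3 or fl/fl culture 2 and 5 without fl/fl culture 1. Without line 1290 it was 3, without line 1292 or 1293 it was 4 and without line 1294 it was 5. In all 4 line pairs, 3 proteasome genes passed as higher (against 0.589% of all tested genes). Of 30 ribosome biogenesis genes 9 were higher and 0 lower, and all 30 were positive (median 0.32). Among them were Tcof1, a nucleolar factor of rRNA synthesis (0.70, SE 0.12), and Bop1, which processes the large subunit rRNA (0.64, SE 0.11). The number of higher ribosome biogenesis genes was 4 with counts thinned to the smallest library. It was 2 without ΔIEC culture 1, 4 without ΔIEC culture 3 or fl/fl culture 1 and 3 without fl/fl culture 2. Without line 1290 it was 2, without line 1293 it was 0 and without line 1294 it was 14. In all 4 line pairs, 0 ribosome biogenesis genes passed as higher (against 0.589% of all tested genes).

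Of 20 p53 target genes 0 were higher and 3 lower, and 19 were negative (median -0.39). Sesn1, a stress-induced regulator of mTORC1, was at 79.2, 74.8, 60.7 and 54.8 CPM in ΔIEC and at 130.0, 125, 112 and 137 CPM in fl/fl cultures (-0.89, SE 0.14), without overlap. Of 12 fatty acid synthesis genes 0 were higher and 3 lower (median -0.13), among them Scd2, a desaturase (-0.45, SE 0.07). Of 24 sterol genes 0 were higher and 2 lower (median -0.12), among them Stard4, a cholesterol carrier (-0.42, SE 0.08). Of 25 fatty acid oxidation genes 3 were higher and 1 lower (median 0.06), including Acot1 and Ppargc1a. Of 29 drug metabolism genes 0 were higher and 2 lower (median -0.12), Ces1d (-1.71, SE 0.27) and Ugt2b34 (-0.67, SE 0.12). Of 10 genes of fetal or repairing epithelium 1 was higher and 2 lower (median -0.05). Of the 10 epithelial markers 1 was higher and 1 lower (median -0.05), and of the 4 tested immune markers 0 were higher and 1 lower. Among all tested genes, 3.78% were higher and 5.98% lower. The number of lower genes was 8 without a filter, 5 with the untreated cultures alone, 1 without ΔIEC culture 1, 6 without line 1292, 1 without line 1293 and 5 without line 1294 for p53 targets, and 1 without ΔIEC culture 1 or 2 or fl/fl culture 1, 1 without line 1290 or 1293 and 0 without line 1292 for fatty acid synthesis.

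The genes with the smallest p between the fl/fl lines included Rsrp1, at 90.00 and 91.9 CPM in line 1293, 290.1 and 340.3 CPM in line 1294 and 97.6, 103, 88.1 and 123 CPM in ΔIEC cultures. Clca1, a goblet product, was at 114 and 94.2 CPM in line 1293, 26.3 and 24.3 CPM in line 1294 and 29.00, 33.5, 73.2 and 65.2 CPM in ΔIEC cultures. Neither passed between genotypes. Xist was at 524, 471, 464 and 564 CPM in ΔIEC and 494, 511, 874 and 862 CPM in fl/fl cultures, so all 4 lines expressed it.

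On chromosome 1, which carries Atg16l1, 103 of 727 tested genes (14.2%) passed the threshold, against 9.49% of genes elsewhere. Leaving Atg16l1 out, the share was 12.0% (18 of 150) within 20 Mb of it and 14.6% (84 of 576) on the rest of the chromosome. Tubb2b and Nrn1, which led the higher and the lower genes by p, lie 2.59 Mb apart on chromosome 13. These positions were not tested.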
